A study of Rattus norvegicus with 24 samples.

Results

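The 39 genes described here encode the proteins that license replication origins, unwind and copy DNA, supply nucleotides, join the new strands and rebuild chromatin behind the fork. They were chosen by name from the 21425 genes of the deposited table, and all 39 were found there. Each was followed through cultures of a complete testis cell mixture from Sprague Dawley rats at postnatal day 5, seeded at 5000000 cells/mL in medium without serum that contained 4.5 mg/mL Matrigel, with 50% of the medium renewed every 24 h. In the baseline experiment, made from 1 litter, 3 libraries each were prepared from the freshly isolated primary tissue cells ("tissue") and from cultures at day 3, day 5 and day 7, none of them given hormone. The labels call these technical replicates, so their spread is that of 1 litter, and p-values within this experiment do not measure variation between animals. In the induction experiment, cultures from 3 litters were kept for 10 days and sampled before hormone (0 h) and at 2, 12 and 48 h after fresh medium with luteinizing hormone (LH, 50 mIU/mL) and follicle-stimulating hormone (FSH, 20 mIU/mL). Each induction library combined 3 cultures of 1 litter, which gives 3 biological replicates a time. No untreated library of the later times was analysed here, so hormone, fresh medium and elapsed time cannot be told apart. Cells were neither enriched nor depleted for any type, so every library is a mixture.

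Before a cell divides, the origin recognition complex with Cdc6 and Cdt1 loads the ring-shaped MCM2-7 helicase onto DNA in G1. In S phase the helicase is switched on by Cdc45 and the GINS complex, polymerase alpha with its primase starts each strand, and polymerases delta and epsilon extend it on the PCNA clamp that replication factor C loads. Transcription of many of these genes rises at the entry into S phase, in large part through E2F transcription factors, and the whole set is widely read as a mark of cycling cells. In the rat testis soon after birth, Sertoli cells are still dividing and germ cells leave their arrest to become spermatogonia, so both cell types can carry this programme.

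Promoter sequences are shown first because E2F sites are the best known shared feature of these genes. RefSeq promoters of build GRCr8, from 250 bases before to 50 bases after the annotated start, were present for 33 of the 39 genes; Mcm4, Rrm2, Cdc6, Gins4, Orc1 and Rpa3 had no entry in the table. The files were aligned to another build, so these coordinates belong to the sequences and not to the measured values. The 4 E2F-type motifs searched were TTTCCCGC, TTTGGCGC, TTTCGCGC and TTTGCCGC, on both strands, and a match is only a match of letters. Only exact letters were counted, so a gene without a match may still hold a similar site. Capitals mark the matches in 8 promoters, chosen to show 6 genes with a match and 2 without. Mcm2, Mcm5 and Mcm6 encode helicase subunits, Gins1 a GINS subunit, Rfc3 a clamp loader subunit and Uhrf1 the reader of half-methylated DNA. Prim1, the primase catalytic subunit, has no match and was among the genes that fell most in culture, while Rfc1, the large clamp loader subunit, has no match and did not pass the test.
Mcm2 (GRCr8, chr4:122918045-122918344, minus strand): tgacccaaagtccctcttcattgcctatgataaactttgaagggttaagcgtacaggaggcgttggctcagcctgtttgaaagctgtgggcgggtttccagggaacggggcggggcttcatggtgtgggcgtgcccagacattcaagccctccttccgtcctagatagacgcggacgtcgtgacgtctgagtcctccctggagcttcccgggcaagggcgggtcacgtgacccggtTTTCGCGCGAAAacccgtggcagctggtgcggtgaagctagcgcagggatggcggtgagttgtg
Mcm5 (GRCr8, chr19:13488563-13488862, plus strand): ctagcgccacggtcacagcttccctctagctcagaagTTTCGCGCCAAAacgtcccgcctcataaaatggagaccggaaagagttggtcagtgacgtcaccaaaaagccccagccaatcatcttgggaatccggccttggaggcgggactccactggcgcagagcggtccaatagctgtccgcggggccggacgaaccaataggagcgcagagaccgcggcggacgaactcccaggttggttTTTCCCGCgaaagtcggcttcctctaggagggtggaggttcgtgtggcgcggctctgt
Mcm6 (GRCr8, chr13:42404303-42404602, minus strand): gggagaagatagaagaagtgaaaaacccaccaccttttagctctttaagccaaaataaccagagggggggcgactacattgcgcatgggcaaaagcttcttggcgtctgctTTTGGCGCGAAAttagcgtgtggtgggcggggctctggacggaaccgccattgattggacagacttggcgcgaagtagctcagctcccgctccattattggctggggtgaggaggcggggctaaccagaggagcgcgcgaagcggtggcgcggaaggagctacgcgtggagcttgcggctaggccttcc
Gins1 (GRCr8, chr3:160184670-160184969, plus strand): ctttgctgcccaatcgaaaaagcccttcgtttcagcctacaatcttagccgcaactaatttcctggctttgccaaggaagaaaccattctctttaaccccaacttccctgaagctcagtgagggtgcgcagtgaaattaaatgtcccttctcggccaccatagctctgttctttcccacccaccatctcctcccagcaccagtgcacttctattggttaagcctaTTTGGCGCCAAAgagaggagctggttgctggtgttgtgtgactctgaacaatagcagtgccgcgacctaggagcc
Rfc3 (GRCr8, chr12:5836318-5836617, plus strand): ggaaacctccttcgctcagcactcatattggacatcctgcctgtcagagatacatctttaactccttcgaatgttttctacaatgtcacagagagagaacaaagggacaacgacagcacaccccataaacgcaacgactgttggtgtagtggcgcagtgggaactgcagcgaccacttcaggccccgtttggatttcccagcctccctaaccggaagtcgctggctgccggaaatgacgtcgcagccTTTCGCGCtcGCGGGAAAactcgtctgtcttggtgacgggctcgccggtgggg
Uhrf1 (GRCr8, chr9:1222936-1223235, plus strand): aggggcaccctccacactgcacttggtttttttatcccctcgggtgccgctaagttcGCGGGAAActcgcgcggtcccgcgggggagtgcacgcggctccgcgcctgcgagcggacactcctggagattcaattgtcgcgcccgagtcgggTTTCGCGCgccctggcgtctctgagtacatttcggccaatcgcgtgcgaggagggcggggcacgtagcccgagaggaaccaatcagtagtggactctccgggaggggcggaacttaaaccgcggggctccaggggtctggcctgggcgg
Prim1 (GRCr8, chr7:1031212-1031511, plus strand): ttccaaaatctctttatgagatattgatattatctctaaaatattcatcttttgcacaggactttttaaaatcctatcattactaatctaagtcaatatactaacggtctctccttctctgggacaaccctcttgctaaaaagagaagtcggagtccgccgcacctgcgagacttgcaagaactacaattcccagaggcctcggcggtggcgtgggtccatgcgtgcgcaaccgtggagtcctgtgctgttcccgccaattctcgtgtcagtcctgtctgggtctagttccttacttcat
Rfc1 (GRCr8, chr14:43319748-43320047, plus strand): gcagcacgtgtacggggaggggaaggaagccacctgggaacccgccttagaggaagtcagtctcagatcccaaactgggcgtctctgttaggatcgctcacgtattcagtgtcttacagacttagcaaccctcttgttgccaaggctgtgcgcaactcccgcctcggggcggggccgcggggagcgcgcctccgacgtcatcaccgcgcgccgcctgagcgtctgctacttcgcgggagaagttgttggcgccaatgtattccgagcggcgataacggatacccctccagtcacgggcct

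An E2F-type match was present in 15 of the 33 promoters (45.5%), and 9 of them held at least 2 matches. Among all 27457 genes with a promoter in the table the share was 2.37%, and among the 10202 such genes that were tested in the baseline libraries it was 4.20%. Of 44 promoters of other replication factors outside the 39 genes, 38.6% held a match, against 4.0% of 25 promoters of mitosis genes. The CCAAT box, searched as CCAAT on both strands, was present in 66.7% of the 33 promoters, in 39.6% of all promoters, in 40.9% of the 44 of other replication factors and in 72.0% of those of mitosis genes. In Mcm2, Mcm5, Mcm6 and Gins1 a forward and a reverse match overlap, so that these 2 matches are not separate stretches. Mcm5 holds a further match, at -8 to -1, apart from its overlapping pair. Uhrf1 has 3 entries in the promoter table, of which the 1 with matches is shown.

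**Figure D1:**
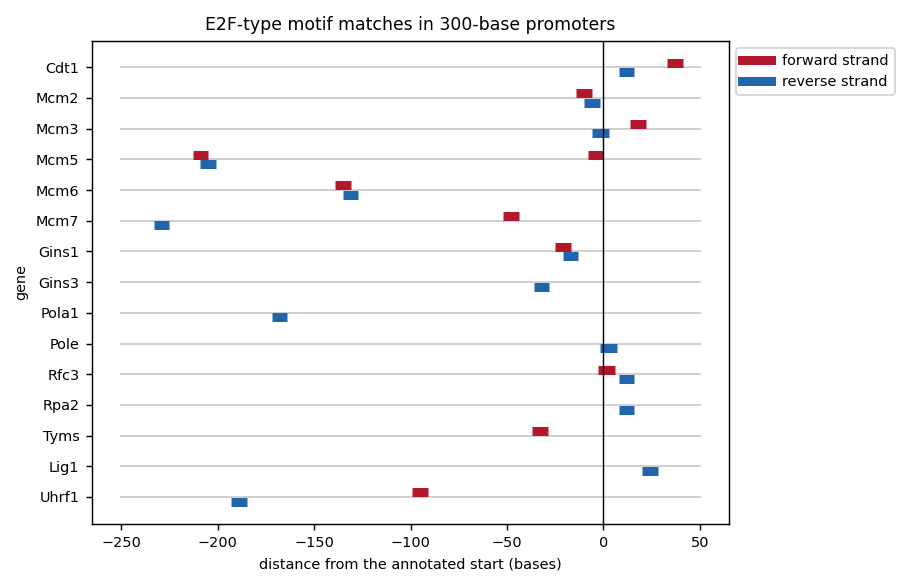
Position of each E2F-type motif match in the 300-base promoters of the 15 genes that hold at least 1; the horizontal axis is the distance from the annotated start in bases, and red and blue bars are matches on the forward and the reverse strand. The matches of Mcm2, Mcm3, Gins1 and Rfc3 lie near the start, whereas those of Mcm6 and Uhrf1 lie further before it.

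The baseline libraries held 17259939 to 30400440 reads and the induction libraries 15793940 to 28298743. Values are given as CPM, the reads of a gene per 1000000 reads of its library, and a single read stood for 0.0329 to 0.0579 CPM in baseline libraries and 0.0353 to 0.0633 CPM in induction libraries. Changes were tested with limma on log2(CPM + 1) across all genes that reached 1 CPM in at least 3 libraries of an experiment, which left 13055 genes and all 39 members in the baseline and 12450 genes and 38 members in the induction experiment. A gene was called when its p-value, adjusted by Benjamini-Hochberg over all genes tested, was under 0.05. Fold changes are therefore on the log2(CPM + 1) scale, which understates changes of low genes. The labelled tissue was checked with markers fixed for 7 cell types: the summed level of 11 Sertoli cell markers was 3721 to 3906 CPM in the tissue libraries, that of 17 germ cell markers 656 to 695 CPM, and at least 1 read was found for every one of these markers.

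Nearly all replication genes fell when the cells went from tissue into culture. Their summed level was 4740 ± 76.0 CPM in the tissue libraries (SD, n = 3), then 2617 ± 126, 2154 ± 87.1 and 1787 ± 147 CPM at days 3, 5 and 7. The day 7 sum was thus 37.7% of the tissue sum, and the highest culture library, at 2715 CPM, lay below the lowest tissue library, at 4652 CPM. At day 3, 36 of the 39 genes were called lower and 0 higher, beside 26.8% of all genes tested called lower and 29.1% called higher. At day 5 the counts were 36 lower and 0 higher, beside 30.3% and 29.6% of all genes. By day 7, 38 genes were called lower and 0 higher, beside 31.4% and 28.5% of all genes. The median log2 fold change of the 39 genes was -0.84 at day 3, -1.14 at day 5 and -1.42 at day 7, while that of all genes was 0.02, -0.03 and -0.05. At least a 2-fold lower value on the log2(CPM + 1) scale was found for 11 genes at day 3, 26 at day 5 and 30 at day 7. These were all among the genes called lower, and the share of all genes past this cut was not counted. The group means fell at every step from tissue to day 7 in 33 genes; the exceptions were Pold1, Gins2, Rfc1, Orc1, Lig1 and Fen1.

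**Figure D2:**
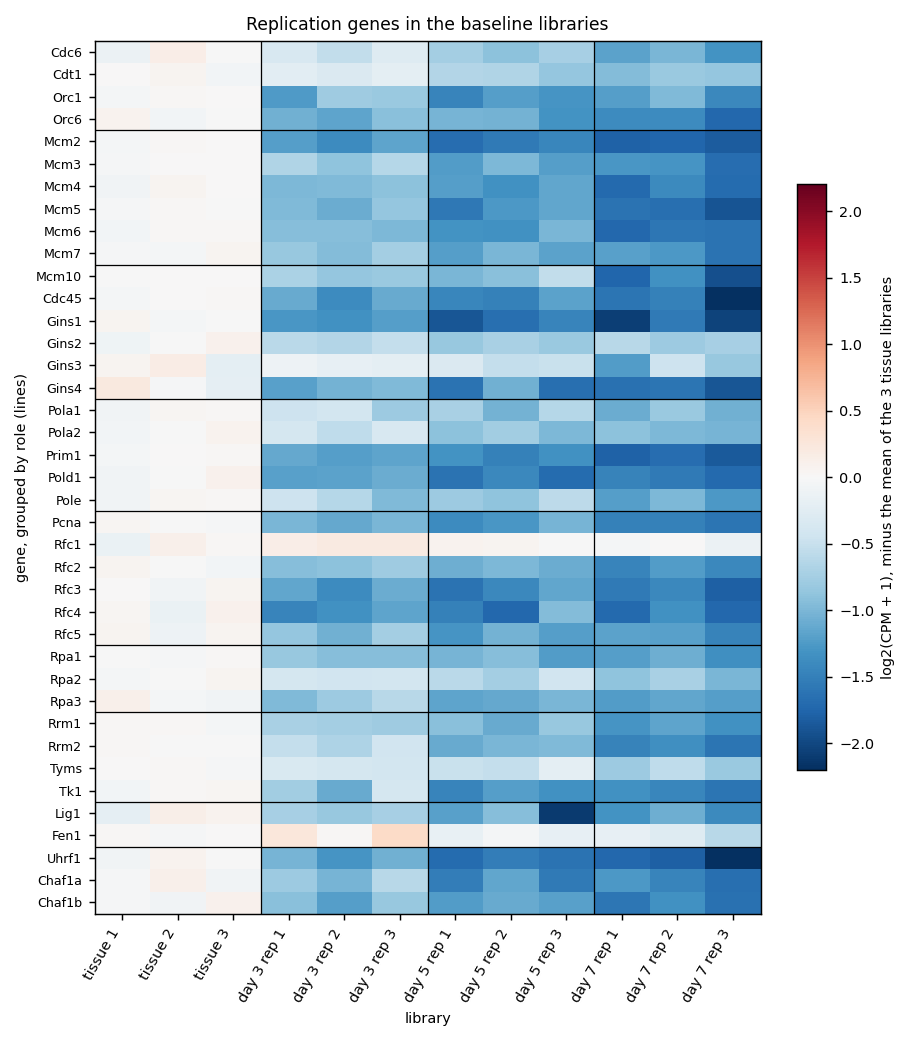
Level of the 39 replication genes in the 12 baseline libraries, as log2(CPM + 1) minus the mean of the 3 tissue libraries, with genes grouped by role between the black lines. Rows turn blue from tissue to day 7 except Rfc1, which stays near white, and Fen1, which is red at day 3 and pale blue at day 7, and Lig1 in day 5 replicate 3 is darker than its neighbours.

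These are mixed cells, so that fewer cells of a type and less of an RNA per cell cannot be told apart. The cell type markers changed with the culture: the summed germ cell markers were 678 ± 20.5 CPM in tissue and 144 ± 23.7 CPM at day 3 (SD, n = 3), with 14 of 16 tested markers called lower. Between day 3 and day 7 the germ cell sum was 116 to 160 CPM in all 9 culture libraries. Of its 16 tested markers 0 were called by limma, with 1 at an unadjusted p under 0.05. Uchl1, Kit and Tdrd9 had the largest means at day 3, at 61.5, 28.4 and 18.7 CPM. Dazl, Dnd1, Kit, Sohlh1 and Tdrd9 had higher means at day 7 than at day 3, and the other markers of this list had lower ones. The Sertoli cell sum was 3815 ± 92.3 CPM in tissue, 5823 ± 190 CPM at day 3 and 5349 ± 227 CPM at day 7. Its markers did not move together. At day 3 the means of Amh, Clu, Dhh, Gata4, Sox9 and Wt1 were higher than in tissue. Those of Aard, Fshr, Inha, Rhox5 and Tf were lower. Peritubular myoid cell markers went from 1711 ± 94.7 CPM in tissue to 5072 ± 379 CPM at day 7, with 8 of 9 called higher, after a sum of 3744 ± 228 CPM at day 3. The summed macrophage markers were 80.8 ± 6.78 CPM in tissue and then 51.2 ± 14.4, 38.5 ± 10.0 and 29.9 ± 4.35 CPM at days 3, 5 and 7, with a lower mean at each step. Much of the first step was Tyrobp, with means of 23.8 CPM in tissue and 1.88 CPM at day 3. Adgre1, Cd68 and Ptprc had higher means at day 3 than in tissue, and the other markers of this list had lower ones. From day 3 to day 7, 0 of the 7 macrophage markers tested were called by limma, with 5 at an unadjusted p under 0.05. The part of these shifts in the fall of the replication genes was not tested.

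Of the 4 genes of origin recognition and licensing, all were called lower at each culture day. Orc1, the largest subunit of the origin recognition complex, was 18.7, 19.5 and 19.3 CPM in tissue and 7.47, 10.7 and 10.5 CPM at day 3. At day 7 it was 7.74, 9.32 and 6.54 CPM, so that tissue and culture did not overlap (log2 fold change -1.20 ± 0.17 SE, adjusted p = 3.37e-05). Orc6, the smallest subunit, fell from 28.8 ± 1.44 CPM in tissue to 13.5 ± 1.19 CPM at day 3 and 9.60 ± 1.42 CPM at day 7 (-1.50 ± 0.14, adjusted p = 1.13e-06). The 2 helicase loaders had small changes at day 3. Cdt1 was 63.2, 65.0 and 59.8 CPM in tissue, 53.2, 49.9 and 53.9 CPM at day 3, and 32.0, 35.0 and 34.3 CPM at day 7. Its change was -0.26 ± 0.10 at day 3 (adjusted p = 0.0350) and -0.87 ± 0.10 at day 7 (adjusted p = 4.09e-06). Cdc6 was 24.8 ± 2.42 CPM in tissue, 18.6 ± 1.81 CPM at day 3 and 10.5 ± 1.23 CPM at day 7, with changes of -0.39 ± 0.13 (adjusted p = 0.0237) and -1.16 ± 0.13 (adjusted p = 6.92e-06). The day 3 calls of both loaders are fragile: that of Cdc6 was lost without tissue replicate 2, tissue replicate 3 or day 3 replicate 2, and that of Cdt1 without any 1 of the 3 tissue libraries or day 3 replicates 1 or 2, and with a replicate block, with adjusted p-values up to 0.0988 and 0.113.

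All 6 subunits of the MCM2-7 helicase were called lower at day 3, day 5 and day 7. Mcm2 was 349, 369 and 363 CPM in the tissue libraries, 155, 137 and 160 CPM at day 3, 113, 121.9 and 133 CPM at day 5, and 104, 106 and 101 CPM at day 7. Each day lay wholly below the one before it. Its log2 fold change against tissue was -1.25 ± 0.09 at day 3 (adjusted p = 1.02e-07) and -1.79 ± 0.09 at day 7 (adjusted p = 3.58e-09). Mcm5 was 222, 230 and 225 CPM in tissue, 115, 105 and 125 CPM at day 3, 75.1, 93.8 and 102 CPM at day 5, and 72.2, 71.2 and 59.8 CPM at day 7. These groups did not overlap either, and the day 7 change was -1.73 ± 0.12 (adjusted p = 6.05e-08). The tissue and day 7 means of the other 4 subunits were 222 ± 4.05 and 83.1 ± 12.3 CPM for Mcm3, 274 ± 12.2 and 89.8 ± 11.2 CPM for Mcm4, 281 ± 10.5 and 89.3 ± 4.49 CPM for Mcm6, and 319 ± 13.3 and 125 ± 19.1 CPM for Mcm7. Mcm7 carries 3 microRNA genes within it (Mir25, Mir93 and Mir106b), which these libraries do not measure apart from it. The summed level of the 6 subunits at day 7 was 33.2% of that in tissue.

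The 6 genes of helicase activation included some of the deepest falls and 1 late one. Mcm10, which helps to start unwinding, was 55.6, 56.1 and 56.2 CPM in tissue, 34.1, 30.6 and 31.2 CPM at day 3, 27.5, 29.2 and 38.2 CPM at day 5 and 15.9, 21.7 and 14.0 CPM at day 7. Its libraries at days 3 and 5 overlapped, and those of day 7 lay below both (day 7 against tissue -1.67 ± 0.16, adjusted p = 9.58e-07). Cdc45, the helicase cofactor, fell from 40.2 ± 1.02 CPM to 17.0 ± 1.85 CPM at day 3 and 11.4 ± 3.05 CPM at day 7 (-1.77 ± 0.17, adjusted p = 1.62e-06). Gins1 was 36.0, 33.4 and 34.4 CPM in tissue, 13.6, 13.1 and 14.3 CPM at day 3 and 7.46, 11.1 and 7.71 CPM at day 7 (-1.88 ± 0.16, adjusted p = 3.91e-07). Gins3, another subunit of the same complex of 4, was 15.8, 16.9 and 12.8 CPM in tissue and 13.9, 13.1 and 12.9 CPM at day 3, so that these groups overlapped. It was not called at day 3 or day 5, and at day 7, at 5.85, 10.7 and 7.97 CPM, it was called lower. Gins4 went from 30.4 ± 4.49 CPM in tissue to 8.62 ± 0.966 CPM at day 7, and Gins2 from 30.3 ± 2.03 to 18.0 ± 1.24 CPM.

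All 5 genes of the polymerases and primase were called lower at every culture day. Prim1 was 251, 262 and 265 CPM in tissue, 118, 112 and 116 CPM at day 3, 103, 91.9 and 102 CPM at day 5, and 74.9, 80.9 and 71.7 CPM at day 7. No 2 of these groups overlapped, and the day 7 change was -1.76 ± 0.08 (adjusted p = 2.23e-09). Its partners in the same enzyme had smaller changes: Pola1, the catalytic subunit of polymerase alpha, went from 67.2 ± 3.20 CPM to 33.5 ± 3.79 CPM at day 7 (-0.99 ± 0.14, adjusted p = 3.45e-05), and Pola2, its regulatory subunit, from 59.2 ± 3.25 to 29.7 ± 1.26 CPM. Pold1, the catalytic subunit of polymerase delta, went from 149 ± 9.16 CPM to 66.3 ± 2.40 CPM at day 3 and had the same mean of 49.4 CPM at days 5 and 7 (SD 5.18 and 4.21). Pole, the catalytic subunit of polymerase epsilon, went from 83.8 ± 3.93 CPM to 52.2 ± 9.37 CPM at day 3 and 37.1 ± 3.92 CPM at day 7 (-1.16 ± 0.13, adjusted p = 7.34e-06).

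The clamp and 4 of the 5 clamp loader subunits fell, and the fifth, Rfc1, was not called at any day. Pcna, the sliding clamp, was 362, 349 and 348 CPM in tissue, 175, 162 and 175 CPM at day 3, 135, 145 and 174 CPM at day 5, and 125, 125 and 116 CPM at day 7 (-1.53 ± 0.10, adjusted p = 2.59e-08). Rfc3 was 105, 99.6 and 109 CPM in tissue, 46.6, 39.4 and 48.4 CPM at day 3 and 35.1, 38.7 and 29.5 CPM at day 7 (-1.58 ± 0.14, adjusted p = 4.99e-07). Rfc4 had the lowest log2 fold change of the 39 genes at day 3 (-1.32 ± 0.18, adjusted p = 3.47e-05), from 65.3 ± 5.67 CPM to 25.6 ± 2.68 CPM. Rfc2 and Rfc5 were 38.2% and 40.6% of their tissue means at day 7. Rfc1, which binds DNA as the large subunit of the loader, was 77.3, 92.6 and 87.6 CPM in tissue, 95.3, 98.0 and 98.1 CPM at day 3, 90.2, 88.7 and 84.8 CPM at day 5, and 82.6, 86.4 and 78.5 CPM at day 7. Its day 3 libraries all lay above those of tissue, and those of day 7 fell within the tissue range. The change was 0.18 ± 0.09 at day 3 (adjusted p = 0.0961) and -0.05 ± 0.09 at day 7 (adjusted p = 0.620).

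The 3 genes of single-strand binding and the 4 of nucleotide supply were all called lower at each culture day, and their sums at day 7 were 45.9% and 43.2% of those in tissue. Rpa1, the large subunit of the single-strand binding protein RPA, went from 188 ± 3.32 CPM to 99.7 ± 4.29 CPM at day 3 and 80.9 ± 7.70 CPM at day 7 (-1.21 ± 0.10, adjusted p = 2.56e-07). Rpa3 went from 41.7 ± 3.02 to 17.6 ± 0.632 CPM at day 7 (-1.20 ± 0.12, adjusted p = 1.79e-06), and Rpa2 from 78.6 ± 3.01 to 42.8 ± 4.43 CPM. The 2 subunits of ribonucleotide reductase, which makes deoxyribonucleotides, were among them. Rrm1 went from 267 ± 6.96 CPM to 158 ± 3.96 CPM at day 3 and 111 ± 7.32 CPM at day 7 (-1.26 ± 0.09, adjusted p = 7.39e-08). Rrm2 was 62.8, 60.8 and 60.9 CPM in tissue, 42.5, 38.2 and 45.6 CPM at day 3, 28.0, 30.1 and 30.9 CPM at day 5, and 21.6, 23.6 and 19.5 CPM at day 7, with no overlap between any 2 groups (day 7 against tissue -1.47 ± 0.11, adjusted p = 9.47e-08). Tk1, the thymidine kinase of the salvage route, fell from 133 ± 5.05 to 47.9 ± 4.74 CPM at day 7 (-1.46 ± 0.15, adjusted p = 2.22e-06). Tyms, which makes thymidylate anew, fell from 111 ± 2.21 to 67.1 ± 6.84 CPM (-0.73 ± 0.10, adjusted p = 3.65e-05).

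The 2 genes of lagging strand joining differed from each other. Fen1, the nuclease that trims flaps between fragments, was 42.5, 41.3 and 42.1 CPM in tissue and 50.0, 42.7 and 56.7 CPM at day 3. All 3 day 3 libraries lay above tissue, but the change of 0.23 ± 0.13 did not pass the test (adjusted p = 0.142). At day 7 it was 36.8, 34.2 and 27.0 CPM (-0.36 ± 0.13, adjusted p = 0.0269), a call that was lost without any 1 of the 3 tissue libraries or day 7 replicate 3, and with edgeR and a replicate block (adjusted p up to 0.136). Lig1, the ligase that seals the fragments, fell from 63.4 ± 7.68 CPM to 36.7 ± 1.67 CPM at day 3 and 25.7 ± 3.16 CPM at day 7 (-1.27 ± 0.23, adjusted p = 0.000324). Its day 5 libraries were 27.1, 32.6 and 13.9 CPM, the last of them apart from the other 2. Both genes overlap another protein-coding gene in the GRCr8 annotation, Fen1 with Tmem258 and Lig1 with Zswim9, as do Uhrf1 with Arrdc5, Rrm2 with Cys1 and Gins2 with Gse1. The libraries do not mark strand, so reads of such pairs may not be separable. A further limit is that 12 of the 39 genes have a pseudogene or near copy named after them, among them Mcm2, Mcm4, Mcm7, Pcna, Rrm1 and Rrm2, with which reads could be shared.

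The 3 genes that copy chromatin and DNA methylation were called lower at each culture day, and their sum at day 7 was 29.3% of that in tissue. Uhrf1, which brings the maintenance methyltransferase to new DNA, was 213, 238 and 222 CPM in tissue, 110, 90.8 and 108 CPM at day 3, 68.6, 77.0 and 71.8 CPM at day 5, and 66.7, 64.0 and 44.5 CPM at day 7. Its day 7 change of -1.94 ± 0.14 (adjusted p = 7.54e-08) was the lowest of the 39 genes. Chaf1a and Chaf1b, subunits of the chromatin assembly factor that places histones on new DNA, were 31.3 ± 4.35 and 13.8 ± 1.68 CPM at day 7, against 87.1 ± 5.98 and 41.2 ± 2.60 CPM in tissue (Chaf1b -1.52 ± 0.13, adjusted p = 5.01e-07).

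**Figure D3:**
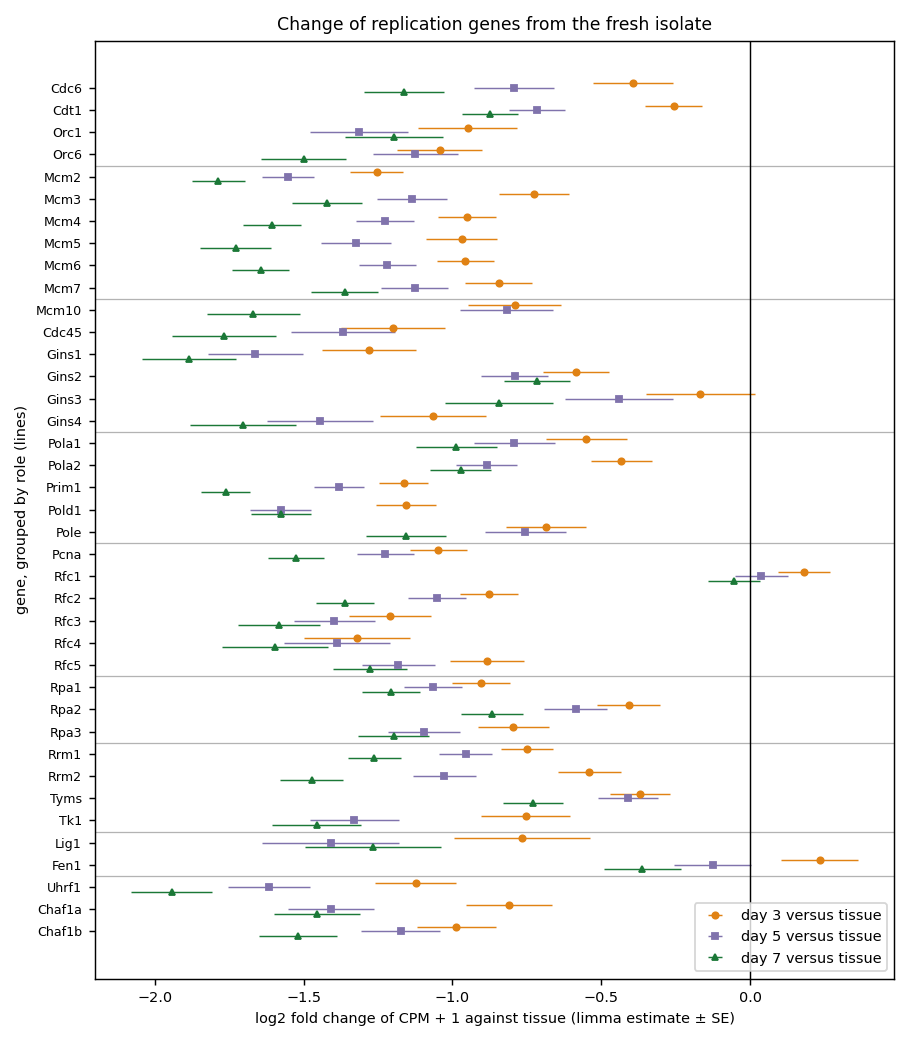
Log2 fold change of each gene against tissue at day 3 (orange circles), day 5 (purple squares) and day 7 (green triangles), as limma's estimate ± SE from 3 libraries a group. Most genes lie between -0.5 and -2.0 and move left with time, whereas Rfc1 stays near 0 and Fen1 lies right of 0 at day 3.

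Most of the fall was present by day 3, and a further decline followed between day 3 and day 7. The day 3 median was 59.4% of the day 7 median on the log2 scale. From day 3 to day 7, 22 of the 39 genes were called lower and 0 higher, beside 2.44% of all genes tested called lower and 1.36% called higher, with a median log2 fold change of -0.53 (all genes -0.06). In 36 genes every day 7 library lay below every day 3 library, beside 14.1% of all genes. All 6 MCM2-7 subunits and all 3 chromatin genes were among the 22, but only 2 of the 6 clamp and clamp loader genes and 1 of the 6 helicase activation genes. The count was 12 without day 3 replicate 1 and also 12 without day 7 replicate 3, and 14 when these 2 groups alone were fitted.

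The largest changes between day 3 and day 7 were those of Rrm2 (-0.93 ± 0.11, adjusted p = 0.000538), Mcm10 (-0.88 ± 0.16, adjusted p = 0.00770), Uhrf1 (-0.82 ± 0.14, adjusted p = 0.00599), Cdc6 (-0.77 ± 0.13, adjusted p = 0.00742) and Mcm5 (-0.76 ± 0.12, adjusted p = 0.00408). Cdt1 (-0.62 ± 0.10, adjusted p = 0.00405) and Fen1 (-0.60 ± 0.13, adjusted p = 0.0200), which had changed little or not passed the test at day 3, were called in this step; the call of Fen1 was lost without day 3 replicate 1, day 3 replicate 3 or day 7 replicate 3. In contrast, Gins2, Orc1 and Rfc4 had values of -0.13, -0.25 and -0.28 and were not called. Pold1 and Chaf1b were called by a small margin (adjusted p = 0.0355 and 0.0409), and each lost its call in 14 of 21 alternatives. The shorter steps gave no calls: 0 of 39 genes from day 3 to day 5, beside 0.0536% of all genes lower and 0.0613% higher, and 0 of 39 from day 5 to day 7, beside 0.0230% lower and 0.0536% higher. At an unadjusted p under 0.05 by limma, 22 and 20 genes passed in these 2 steps, beside 1553 and 1817 of all 13055 genes tested. By edgeR's quasi-likelihood test 0 and 0 were called. DESeq2 on the recovered reads called 6 and 4 lower, beside 83 and 85 of 13046 genes called lower. All 39 genes had a negative estimate from day 3 to day 5, beside 55.6% of all genes. In 25 of the 39 the libraries did not overlap, beside 7.37% of all genes. From day 5 to day 7 the libraries of 19 genes did not overlap, beside 9.71% of all genes.

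**Figure D4:**
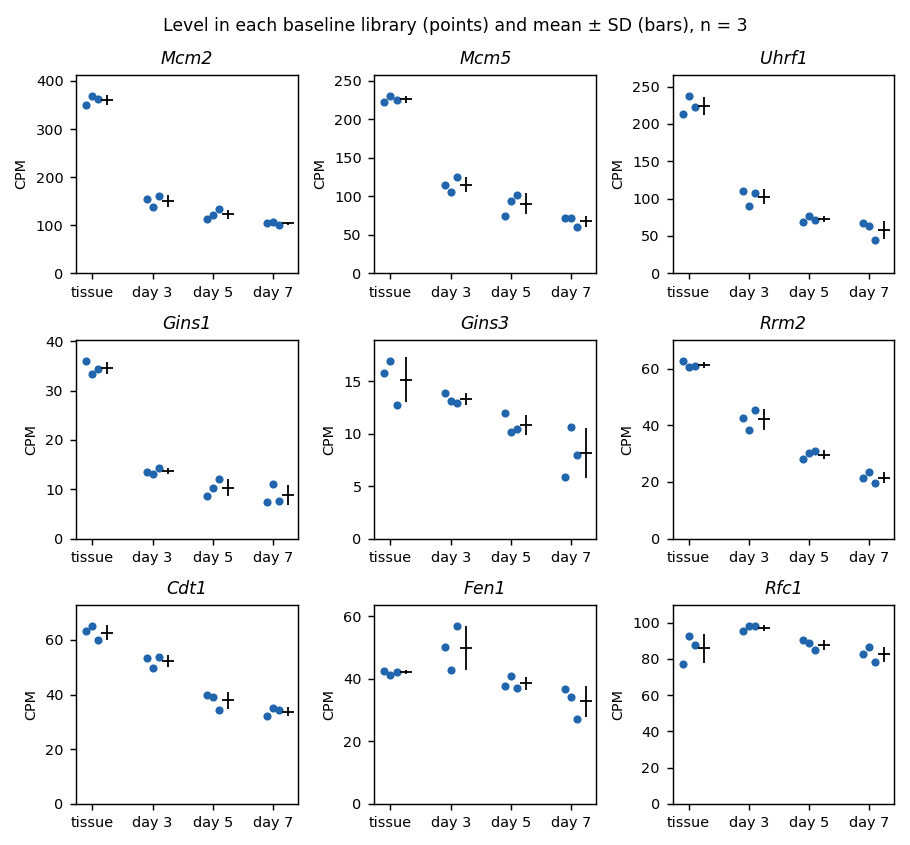
CPM of 9 replication genes in each baseline library (points), with the mean ± SD of the 3 libraries of a group beside them (bars); every axis starts at 0. Mcm2, Mcm5, Uhrf1 and Gins1 drop mostly before day 3, Rrm2 and Cdt1 step down over all days, and Rfc1 ends within its tissue range.

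The proportions of subunits of the same complex were compared between the tissue and culture libraries of this 1 litter. For each of 38 pairs of subunits within 6 complexes, the difference of their log2(CPM + 1) was compared between the 3 tissue and the 9 culture libraries with an exact two-sided permutation test, adjusted over the 38 pairs. The pairs were chosen after the values were seen, and the 9 culture libraries come from 3 days of 1 litter. The smallest p that the 220 regroupings of these libraries can give is 0.00909. In these data it became 0.0216 after adjustment over the 38 pairs. By this test 17 of the 38 pairs differed between these tissue and culture libraries. The count was 0 without any 1 of the tissue libraries, where the smallest p of the exact test is 0.0364. The share over other pairs of genes was not counted, so whether such shifts are particular to subunits was not tested. Rfc1 against each of the other 4 loader subunits rose by 1.15 to 1.49 on the log2 scale, each with an adjusted p = 0.0216 by the exact test. Within GINS, Gins1 fell against Gins3 by 1.13 and against Gins2 by 0.91, and Gins2 and Gins3 each rose against Gins4, by 0.71 and 0.92. Within MCM2-7, 4 of 15 pairs changed, and all 4 were of Mcm2, which fell by 0.26 to 0.44 against Mcm3, Mcm4, Mcm6 and Mcm7. Pola1 and Pola2 rose against Prim1 by 0.66 and 0.67. Rpa1 fell against Rpa2 by 0.44 and Rpa2 rose against Rpa3 by 0.41, while Rpa1 against Rpa3 moved by -0.03 and did not pass the test. Rfc2 rose against Rfc3 by 0.30 (adjusted p = 0.0406 by the exact test). For the pair Rrm1 and Rrm2 the difference moved by 0.02 (p = 0.818 by the exact permutation test), which does not show that their proportion stayed the same on each day.

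Other genes of the cycle moved in the same period. Of 52 other replication factors, 35 were called lower and 2 higher (Rrm2b and Tk2) at day 3, and 42 lower and 1 higher (Tk2) at day 7, with a day 7 median of -1.06. The shares of all genes were 26.8% lower and 29.1% higher at day 3, and 31.4% and 28.5% at day 7. Among those named, Dnmt1, the maintenance methyltransferase, went from 325 ± 22.2 to 135 ± 14.1 CPM at day 7 (-1.26 ± 0.11, adjusted p = 7.10e-07), and Gmnn, the inhibitor of Cdt1, from 36.2 ± 1.86 to 10.0 ± 2.80 CPM (-1.78 ± 0.23, adjusted p = 2.01e-05). Mcm8, a relative of the MCM2-7 subunits, had the largest change of that list (-2.04 ± 0.20, adjusted p = 1.38e-06), from 38.8 ± 4.58 to 8.73 ± 1.65 CPM. Of 27 mitosis genes, all were called lower at day 7, with a median of -1.47. Between day 3 and day 7, 22 of them were called lower, beside 2.44% of all genes.

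The 31 regulators of the passage from G1 to S phase were split, with 20 called lower and 6 higher at day 7. Of all genes tested, 31.4% were called lower and 28.5% higher at that day. E2f1, an activator of replication genes, was 94.3 ± 2.77 CPM in tissue, 66.6 ± 11.6 CPM at day 3 and 43.9 ± 6.04 CPM at day 7 (-1.09 ± 0.16, adjusted p = 4.37e-05). E2f8, a repressor that cycling cells express, went from 35.2 ± 3.43 to 11.4 ± 3.11 CPM (-1.57 ± 0.21, adjusted p = 2.24e-05). Ccne1, a cyclin that drives S phase entry, went from 19.6 ± 0.391 to 11.4 ± 2.16 CPM (-0.75 ± 0.15, adjusted p = 0.000939), while its relative Ccne2 was called higher at day 3 (0.42 ± 0.15, adjusted p = 0.0334) and was not called at day 7. The 6 genes called higher at day 7 were Cdkn2b, Cdkn1a, Ccnd1, Ccnd3, E2f3 and Cdk6. Cdkn2b, an inhibitor of the cyclin D kinases, rose from 9.22 ± 0.549 CPM in tissue to 99.3 ± 12.8 CPM at day 3 and 132 ± 53.4 CPM at day 7 (3.61 ± 0.28, adjusted p = 2.09e-07). Cdkn1a, which encodes the inhibitor p21, rose from 18.8 ± 0.883 to 82.9 ± 16.7 CPM at day 7 (2.06 ± 0.24, adjusted p = 7.87e-06).

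Genes with and without an E2F-type match in the promoter had overlapping ranges of change. The median day 7 change was -1.36 for the 15 genes with a match and -1.46 for the 18 without, with ranges of -1.94 to -0.73 and -1.77 to -0.05. Mcm2, Gins1 and Uhrf1, whose matches are printed above, had changes of -1.79, -1.88 and -1.94, and Prim1, which has none, had -1.76.

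After LH and FSH no replication gene was called at any time. The summed level of the 39 genes was 1586 ± 217 CPM at 0 h, 1554 ± 174 CPM at 2 h, 1640 ± 87.6 CPM at 12 h and 1671 ± 222 CPM at 48 h (SD, n = 3 litters). The libraries of all 4 times overlapped. Of the 38 genes tested, 0 were called lower and 0 higher at 2 h, at 12 h, at 48 h or from 12 to 48 h by limma, by edgeR's quasi-likelihood test, by DESeq2 or with litter as a block. Without a block, 0% of all genes were called lower or higher at 2 h, at 12 h and from 12 to 48 h, and 0.0482% lower and 0.345% higher at 48 h. The litters pair these libraries, and with litter as a block more genes outside the 38 were called: 0.289% of all genes lower and 0.329% higher at 2 h, 0% in either direction at 12 h, 2.13% lower and 2.22% higher at 48 h, and 0.281% lower and 0.434% higher from 12 to 48 h. At an unadjusted p under 0.05, limma without a block passed 1 of the 38 genes at 2 h and 0 at the other times, and with the block 2 at 2 h, 2 at 12 h, 7 at 48 h (6 higher and 1 lower) and 2 from 12 to 48 h. Of all 12450 genes, 1327, 311, 1614 and 846 passed without a block at 2 h, 12 h, 48 h and from 12 to 48 h. With the block 2277, 1000, 2953 and 1662 of the 12450 passed in the same comparisons. The gene passed at 2 h without the block was Orc6, at 7.38, 8.78 and 7.57 CPM at 0 h and 9.89, 11.9 and 9.48 CPM at 2 h in litters 1, 2 and 3 (0.36 ± 0.13, unadjusted p = 0.0201, adjusted p = 0.347 by limma). It was higher at 2 h in all 3 litters, and at 48 h it was 9.15, 8.08 and 6.51 CPM. The median change of the 38 genes was -0.02 at 2 h, 0.06 at 12 h and 0.05 at 48 h. These medians changed sign with single libraries: with 1 library left out they ran from -0.13 (without litter 3 at 0 h) to 0.09 (without litter 3 at 2 h) at 2 h, and from -0.04 (without litter 3 at 0 h) to 0.16 and 0.17 (without litter 2 at 0 h) at 12 and 48 h. The 48 h median was also negative, at -0.02, without litter 2 at 48 h.

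At 48 h, 14 of the 38 genes were higher than at 0 h in all 3 litters, beside 17.7% of all genes, and 2, Pola2 and Gins2, were lower in all 3, beside 28.9%. The 14 included the licensing genes Cdc6 and Cdt1 and the helicase subunits Mcm2, Mcm3, Mcm5 and Mcm6, besides Pcna, Pola1, Rfc2, Tyms, Fen1, Uhrf1, Chaf1b and Rpa1. Mcm2 went from 95.6 to 111 CPM in litter 1, from 104 to 119 CPM in litter 2 and from 83.0 to 97.2 CPM in litter 3. Cdc6 went from 7.95 to 11.1, from 9.41 to 10.6 and from 5.76 to 8.05 CPM in the same litters. Their log2 fold changes were 0.21 ± 0.11 and 0.34 ± 0.20 (adjusted p = 0.424 and 0.497 by limma without a block). With litter as a block the standard errors were 0.06 and 0.11 and the adjusted p-values 0.0853 and 0.0905, still short of the threshold. At 12 h, 3 genes (Mcm2, Pola1 and Cdc6) were higher in all litters and 2 (Rfc1 and Rpa2) lower, beside 9.75% and 21.5% of all genes. At 2 h, 14 genes had the same direction in all litters, beside 42.0% of all genes; 4 of these were higher (Mcm6, Gins1, Orc6 and Fen1), beside 20.0% of all genes, and 10 lower. The macrophage markers moved in these libraries too, with a summed level of 40.1 to 214 CPM at 0 h and 60.1 to 441 CPM at 48 h, and their part in these values was not tested.

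**Figure D5:**
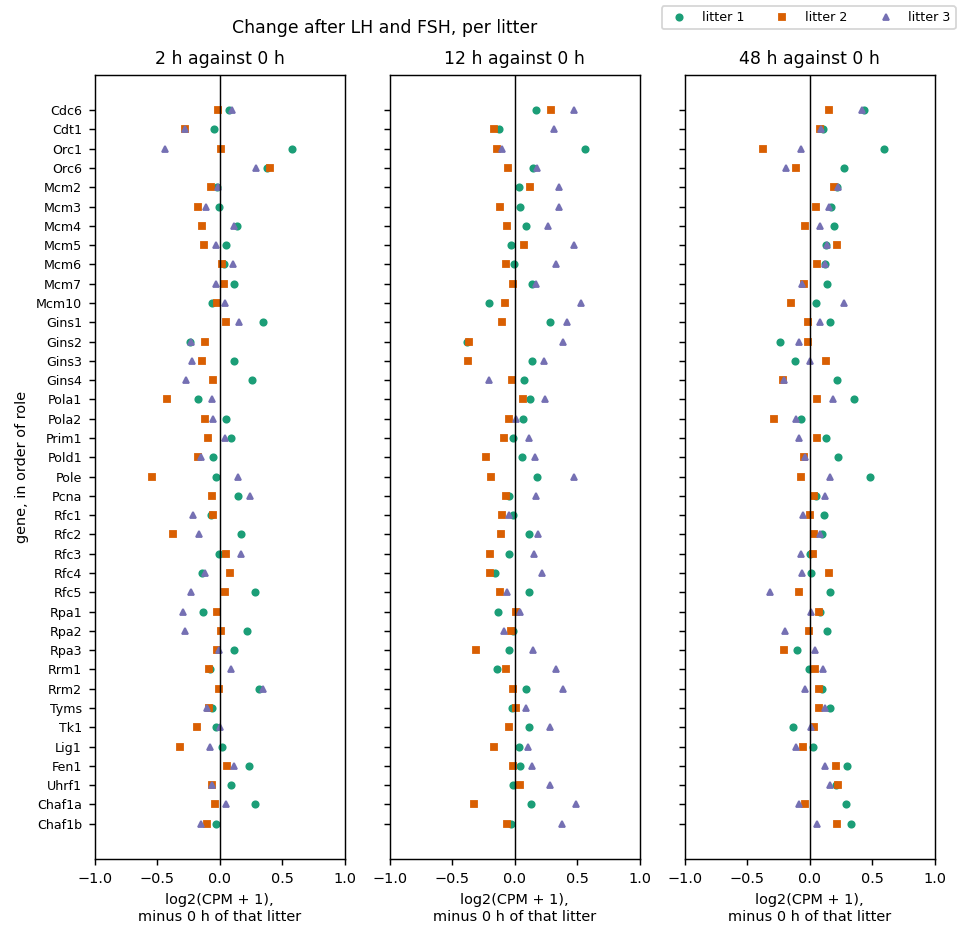
Change of log2(CPM + 1) from the 0 h library of the same litter at 2, 12 and 48 h for the 38 tested replication genes; green circles, orange squares and purple triangles are litters 1, 2 and 3. Points scatter on both sides of 0, litter 3 lies furthest right for most genes at 12 h, and the 3 points of Mcm2 and Fen1 lie right of 0 at 48 h.

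Among the 38 genes tested, the litters kept much the same order from gene to gene. The order over all genes was not counted, so whether it is particular to these genes was not tested. At 0 h, litter 2 had the highest level for 34 of the 38 genes and litter 3 the lowest for 32, and at 48 h these counts were 28 and 37. At 12 h the order was less regular, with litter 2 highest for 24 genes, litter 1 lowest for 18 and litter 3 lowest for 13. Averaged over the 4 times, the level in litter 3 was 81.5% of that in litter 2 for the median gene, from 69.3% for Cdc6 to 105% for Prim1, and 37 of the 38 genes were lower in litter 3. Scaling the libraries by TMM, whose factors were 1.02 to 1.05 in litter 2 and 0.947 to 0.992 in litter 3, moved the median to 88.0% and left 37 genes lower. Mcm5 showed the pattern at 0 h, with 62.3, 72.2 and 48.4 CPM in litters 1, 2 and 3, and at 12 h it was 61.0, 76.2 and 67.6 CPM. Of the other genes of the cycle, 0 of the 31 G1 to S regulators were called at 48 h, and 1 of 51 other replication factors, Rnaseh2b, was called lower (29.0 ± 1.10 to 20.6 ± 2.29 CPM, -0.48 ± 0.09, adjusted p = 0.0461).

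Cdc45 could not be followed in the induction experiment. It had 156 to 1250 reads in each baseline library and 0 to 2 reads in each of the 12 induction libraries, where 3 reads correspond to 0.106 to 0.190 CPM. All 12 values lie under that floor, so no fold change between times is given. The low counts were present at 0 h, before hormone, and the library sizes of the 2 experiments overlapped. How reads were counted in each experiment is not given in the sources used here, and whether it differed was not tested, so these values are not read as a level of the gene. The 2 experiments are not compared here.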

How the data were processed

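Reads from poly-T selected, unstranded libraries were aligned with STAR to mRatBN7.2, per the submitters' processing notes; the counting tool and annotation are not given in the sources used here. The authors deposited CPM, and every value was a whole number of reads within 0.01, so reads were recovered for count tests. Between 2.93% and 4.71% of a library's reads were in none of the listed genes. The 2 experiments were fitted apart with limma 3.58.1 (R 4.3.3) on log2(CPM + 1), with group as the only term, for genes at 1 CPM or more in at least 3 libraries. Alternatives were pseudocounts of 0.1 and 5, no filter, TMM scaling, edgeR 4.0.16 and DESeq2 1.42.0 on recovered reads, only the 2 groups compared, a replicate block, each library left out, and, chosen after seeing the data, edgeR with a block and the settings for subunit pairs. The labels number the litters, which pairs the induction libraries: the 18 same-litter residual correlations had a median of 0.482 (-0.0119 to 0.747). Members and gene lists were chosen with earlier results of these data known. Every member could be named; full statistics were given for the 5 largest called changes in each direction and a fixed panel of 24 members, and, of other lists, for up to 3 called genes with the largest change and a fixed set of cycle genes. No 6 h library was among the 24 libraries analysed here.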

Additional observations from a re-analysis of the deposited data

How the results depend on the processing

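Of 420 alternative values for the 20 counts of called genes, 413 stayed within 1.5 times the reported count. Most of the 20 counts were 0, and for these staying the same means only that again no gene was called. The count of genes lower from day 3 to day 5 was 6 with DESeq2 and 0 to 1 with 1 library left out (1 without day 5 replicate 2), and that from day 5 to day 7 was 4 with DESeq2 and 0 to 1 (1 without day 7 replicate 2). From day 3 to day 7 it was 14 with only these 2 groups fitted and 12 to 29 with 1 library left out, with 29 without day 5 replicate 3. The cause of these shifts was not tested. With a replicate block, 35 genes were called lower at day 3 and 20 from day 3 to day 7, and the other counts, including the 0 calls after hormone, were those reported; the baseline numbers name technical replicates only, whose same-number residuals had a median correlation of -0.0007. The 17 changed subunit pairs became 16 with a pseudocount of 0.1 and 17 with 5, and were 0 to 22 with 1 library left out; the 0 came without any 1 of the tissue libraries, where the smallest p that the exact permutation test can give is 0.0364. In the induction libraries 3 reads stand for at most 0.190 CPM, below the lowest value of the 38 tested members (2.89 CPM, Orc1).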

Other observations

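Mitosis genes and replication genes had different medians in some of the later steps, and the difference between the lists was not tested. From day 5 to day 7 the 27 mitosis genes had a median log2 fold change of -0.45, with 0 called by limma and 23 at an unadjusted p under 0.05, while the 39 replication genes had -0.26 (-0.17 without day 7 replicate 3). Top2a, the topoisomerase that separates sister chromosomes, was 435 ± 50.6 CPM in tissue, 303 ± 64.5 CPM at day 3 and 181 ± 22.2 CPM at day 7 (SD, n = 3), with a day 7 change of -1.26 ± 0.15 against tissue (adjusted p = 9.56e-06 by limma). Mki67, the proliferation marker Ki-67, was 327 ± 30.0 CPM in tissue and 130 ± 23.2 CPM at day 7 (-1.33 ± 0.23, adjusted p = 0.000203 by limma). At 48 h after hormone 28 of 38 replication genes had a positive estimate and 21 of 27 mitosis genes a negative one, with medians of 0.05 and -0.07, and 0 genes of either list were called by limma. Of all 12450 genes tested, 41.7% had a positive and 58.3% a negative estimate at that time. The sign of the replication genes' median rests on single libraries: it was -0.04 without litter 3 at 0 h, -0.02 without litter 2 at 48 h and 0.17 without litter 2 at 0 h.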
